A study of Mus musculus with 6 samples.

Results

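The genes described here are the mouse zinc finger genes whose symbols run from Zfp800 to Zfp999. They were taken from the deposited table of raw counts as every row whose symbol is Zfp followed by a number in that range, with no letter after it, and 90 of the 30619 rows met this rule. The study sequenced the poly(A) RNA of E12.5 mouse embryo hearts in 3 control libraries, whose genotype label is WT, and 3 libraries titled CKO, whose genotype label reads TRIM28 knockdown and which the series calls TRIM28CKO, where CKO is commonly short for conditional knockout. All 6 libraries are labelled as mixed embryonic cardiac cells. The Cre driver, the deleted exons, the strain and the number of hearts in a library were not given in the sources used here, and no label says that libraries came from separate animals, so that p-values measure the spread between these libraries.

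Most genes in this number range encode Kruppel-type zinc finger proteins that begin with a KRAB domain and end in an array of C2H2 fingers. The fingers bind DNA, often in transposable elements, and the KRAB domain recruits TRIM28 (also called KAP1), which in turn brings the histone methyltransferase SETDB1 and heterochromatin protein 1 to the site. Such genes lie in clusters that grew by duplication, and TRIM28 and heterochromatin are known to cover many of the clusters themselves.

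GENCODE M21 (mm10) named 1 gene for each of the 90 symbols, and 89 of these were protein-coding. Zfp939 was annotated as a transcribed unprocessed pseudogene. A KRAB-like stretch was found in the translated coding sequence of 78 members, with a median of 11 C2H2 fingers (range 0 to 22). The other 11 coding members had none and had a median of 5 fingers. They include Zfp800, a regulator of endocrine differentiation in pancreas and gut, Zfp827, which recruits the NuRD complex to telomeric DNA, and Zfp830, a nuclear protein needed for early embryo survival. The 90 genes lay on 14 chromosomes. Joining members less than 1 Mb apart gave 6 runs of at least 4 genes, which held 53 members. The largest run had 16 members on chromosome 4 (145510759 to 147848366), followed by runs of 11 on chromosome 17 (21567008 to 22867134) and of 11 on chromosome 2 (174643534 to 178078476). Runs of 6, 5 and 4 members lay on chromosomes 8, 7 and 17.

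Copies within a run can be hard to tell apart by sequencing. In 33 of the 90 members at least 20% of all 50-base stretches of the annotated transcripts were also present in a transcript of another gene, and 13 of these 33 were in the chromosome 4 run, where the median shared part was 61.2% against 8.91% over all members. How reads shared by several genes were counted was not given in the sources used here. Values of these members are therefore uncertain one by one. Exons of 18 members overlap those of another annotated gene, and whether counting used strand is not given either.

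The sequence upstream of the annotated start was compared because the tested chromosome 4 members, described below, had changes of the same sign. RefSeq (GRCm38.p6, the assembly of mm10) gave a start within 1 kb of the GENCODE start for 72 members, 8 of them in the chromosome 4 run. Of these 8, Zfp933, Zfp979, Zfp982 and Zfp984 were tested for change, and Zfp980, Zfp985, Zfp987 and Zfp988 were too low to be tested. The tested members Zfp992, Zfp991 and Zfp993 of this run had no such start, so their upstream sequence was not compared. The 250 bases upstream are shown for 3 members of this run, for Zfp983 of the chromosome 17 run and for Zfp970 of the chromosome 2 run, with each CCAAT or GGGCGG, on either strand, in capitals.
Zfp984, chr4:147809789-147810038, minus strand: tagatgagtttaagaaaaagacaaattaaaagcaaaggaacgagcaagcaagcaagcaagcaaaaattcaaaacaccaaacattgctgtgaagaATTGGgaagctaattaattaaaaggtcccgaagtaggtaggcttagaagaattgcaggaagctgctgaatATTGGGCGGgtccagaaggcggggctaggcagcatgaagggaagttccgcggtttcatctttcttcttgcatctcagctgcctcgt
Zfp980, chr4:145670447-145670696, plus strand: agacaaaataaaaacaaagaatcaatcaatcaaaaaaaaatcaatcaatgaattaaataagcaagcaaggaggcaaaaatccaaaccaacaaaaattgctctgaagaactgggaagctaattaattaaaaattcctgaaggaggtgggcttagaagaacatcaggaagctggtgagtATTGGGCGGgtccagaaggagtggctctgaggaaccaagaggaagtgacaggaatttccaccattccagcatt
Zfp982, chr4:147492167-147492416, plus strand: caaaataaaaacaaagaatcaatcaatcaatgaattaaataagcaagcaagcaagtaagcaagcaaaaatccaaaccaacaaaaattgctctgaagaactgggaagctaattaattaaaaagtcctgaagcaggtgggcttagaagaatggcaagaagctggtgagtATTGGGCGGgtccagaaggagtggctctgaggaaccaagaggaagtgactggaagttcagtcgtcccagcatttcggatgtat
Zfp983, chr17:21650361-21650610, plus strand: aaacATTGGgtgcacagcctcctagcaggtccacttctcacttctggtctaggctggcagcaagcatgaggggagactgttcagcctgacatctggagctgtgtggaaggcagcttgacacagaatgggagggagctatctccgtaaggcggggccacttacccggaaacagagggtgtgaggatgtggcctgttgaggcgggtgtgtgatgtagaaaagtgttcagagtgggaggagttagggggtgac
Zfp970, chr2:177464492-177464741, plus strand: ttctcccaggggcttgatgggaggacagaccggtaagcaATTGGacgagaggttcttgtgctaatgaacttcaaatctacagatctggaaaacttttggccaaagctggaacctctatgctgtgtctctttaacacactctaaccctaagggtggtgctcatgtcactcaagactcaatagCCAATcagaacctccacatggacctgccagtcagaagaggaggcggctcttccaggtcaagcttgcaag

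CCAAT, the core of the site bound by the factor NF-Y, was present on either strand in 53 of the 72 upstream windows (73.6%) and in 33.8% of all 32851 RefSeq windows of the same length. Some of the windows with it are near copies of each other, as given below, so the 53 are not all separate finds. GGGCGG, the GC box of Sp and Kruppel-like factors, was present in 25 of the 72 (34.7%) and in 32.7% of all windows. In the 3 chromosome 4 sequences both words overlap as ATTGGGCGG, which was noticed on reading these sequences. This 9-base word, which contains both of the shorter ones, was found in 6 of the 8 chromosome 4 windows, namely those of Zfp979, Zfp980, Zfp982, Zfp984, Zfp985 and Zfp988, in 2 others of the 72 (Zfp947 and Zfp994 on chromosome 17) and in 0.231% of all windows. The 3 sequences in which it was noticed are among these 6. The windows of Zfp979, Zfp985 and Zfp988 share 62.9% to 89% of aligned bases with those 3, so the 6 are not separate finds. The 8 chromosome 4 windows shared a median of 71.5% of aligned bases (28 pairs), and the other pairs of members 49.7% (2528 pairs). Among the 28, the pairs with Zfp933 shared 48.8% to 51.9%. Such likeness is not particular to this run. Some pairs of the chromosome 2 run were more alike, such as Zfp966 and Zfp967 (100%) and Zfp968 and Zfp973 (99.6%). The chromosome 4 windows held a median of 2.5 CpG dinucleotides and 40.6% G and C, against 7 and 51.8% in the 64 other members and 6 and 52.4% in all RefSeq windows. Zfp947 and Zfp994, which hold the 9-base word on chromosome 17, had log2 fold changes of 0.57 ± 0.24 and -0.08 ± 0.17, neither called. These matches describe the letters in the window and were not tested for binding or for a link to the changes in level.

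Levels were low for most members. Counts were scaled to the library size as CPM, with edgeR's TMM factors, which correct for composition, and levels of different genes were compared only as CPM per kilobase of annotated exon. The median member had 1.41 CPM per kb, 57 of 90 reached 1, and 18 were under 0.1. Together the 90 genes took 0.0851% to 0.0916% of the counts of a library. Zfp869, a KRAB member of the chromosome 8 run, was the highest, at 20.4, 19.1 and 21.2 CPM per kb in the 3 controls and 20.6, 18.3 and 19.1 CPM per kb in the 3 CKO libraries, above each library's value of any other member. This rank rests on 1.59 kb of annotated exon, about the length that its 529 residues need, against 11.1 kb for Zfp871 and 8.94 kb for Zfp827. The annotation used for counting was not given, so the order by CPM per kb is uncertain. Zfp871 (9.91 to 12.2 CPM per kb) and Zfp830 (9.19 to 12.05) came next, and their ranges overlap. Zfp827 (7.44 to 8.62 CPM per kb) lay below both. Zfp948 (5.78 to 7.69 CPM per kb) and Zfp809 (4.73 to 7.17), which represses proviruses and endogenous retroviruses primed by proline tRNA, overlap each other.

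**Figure D1:**
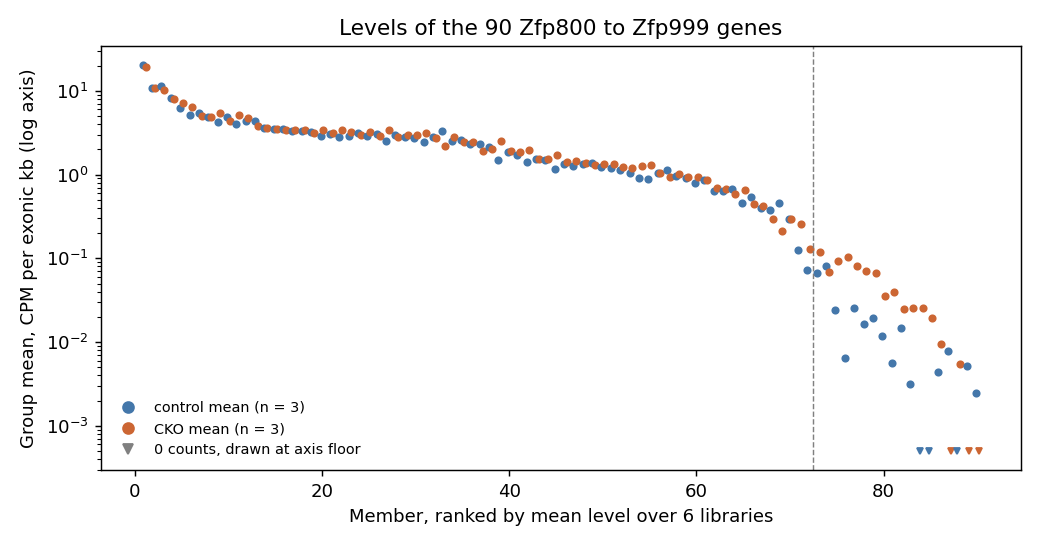
Mean level of each of the 90 members in control (blue) and CKO (orange) libraries, in CPM per exonic kb on a log axis, ordered by the mean over all 6 libraries. The dashed line parts the 72 members that passed the count filter from the 18 that did not, and a group with 0 counts is drawn as a triangle at the floor.

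The targeted gene was read first as a check of the labels. Trim28 had 305, 391 and 443 CPM in control replicates 1, 2 and 3 and 172, 314 and 165 CPM in CKO replicates 1, 2 and 3. The library labelled CKO replicate 2 fell within the control range. The log2 fold change, written here and below as the value ± its SE, was -0.81 ± 0.34 log2 units and was not called (edgeR quasi-likelihood test, adjusted p = 0.339). Directions given for CKO rest on the labels. Libraries held between 34400841 and 39763233 counts. The share of a ribosomal RNA row was higher in each CKO library (0.563% to 0.79%) than in each control (0.126% to 0.522%), and the sums of some sets of cell type markers differed as well. The 4 smooth muscle markers summed to 1509 to 1533 CPM in controls and 2142 to 2602 in CKO, the 6 macrophage markers to 73.8 to 77.4 and 87.5 to 101 CPM, and the 6 endothelial and endocardial markers to 1178 to 1235 and 964 to 1123 CPM. The 6 red cell markers summed to 1863, 1351 and 1065 CPM in controls and 956, 1029 and 1065 CPM in CKO, with a negative log2 fold change in all 6 (median -0.49), 0 called by edgeR and 0 at an unadjusted p under 0.05. The 6 cardiomyocyte markers were abundant in all libraries (13952 to 14896 CPM). Their part in the results below was not tested. In bulk RNA, fewer cells of a type and less RNA per cell cannot be told apart.

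Of the 90 members, 72 passed a filter on low counts and were tested, and 1 of them was called at an adjusted p under 0.05 (edgeR quasi-likelihood test, Benjamini-Hochberg adjustment over 17557 genes, as for each adjusted p of a gene below unless another test is named). This was Zfp992, which was higher in CKO. In this fit and in limma-voom 0 members were called lower, and 2 were lower at an unadjusted p under 0.05. DESeq2 called 1 lower, Zfp970, as did edgeR without scaling factors (adjusted p = 0.0496), with no filter (adjusted p = 0.0209) and without CKO replicate 2 (adjusted p = 0.0357). The called share of 1.39% stands beside 4.1% of all tested genes (3.03% higher and 1.07% lower). At an unadjusted p under 0.05, 8 members (11.1%) were higher and 2 (2.78%) lower, against 10.1% and 7.69% of all tested genes. The values of the groups did not overlap in 12 members with CKO higher (16.7%, against 11.5% of all tested genes) and in 3 with CKO lower (4.17%, against 10.6%). The shares are close to the background for higher values and below it for lower ones, and that difference was not tested. The median log2 fold change was 0.06 over the 72 members and 0.00 over all tested genes. It was 0.07 over the 62 tested members with a KRAB-like stretch and -0.03 over the 9 without one. In the 21 tested members that share at least 20% of their 50-base stretches, Zfp992 among them, it was 0.13. Of these 21, 6 (28.6%) were higher and 1 (4.76%) lower at an unadjusted p under 0.05. In the 51 that share less, the median was 0.02, and 2 (3.92%) were higher and 1 (1.96%) lower. The part of shared sequence in this was not tested. Of the 72, 47 had a log2 fold change within 0.2 of 0.

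Zfp992 (ENSMUSG00000070605.4, chromosome 4, 146449023 to 146470292, plus strand) encodes a KRAB protein with 11 fingers. It was measured at 6.62, 6.31 and 7.32 CPM in the controls and at 10.8, 8.77 and 14.9 CPM in CKO replicates 1, 2 and 3. Each CKO library was above each control, with CKO replicate 3 the highest. The means were 6.75 ± 0.516 and 11.5 ± 3.13 CPM (SD, n = 3 each), a 1.72-fold rise (0.78 ± 0.17 log2 units, adjusted p = 0.0156). Of the 6 fits without a library, 2 made the call, those without CKO replicate 1 or 2, and the adjusted p ranged from 0.000196 to 0.127. Without CKO replicate 3 the log2 fold change was 0.54. It was not called with the ribosomal RNA share (adjusted p = 0.244) or the summed level of Y-linked genes (adjusted p = 0.149) as a covariate. Calls over all tested genes fell too, from 532 higher and 188 lower to 53 and 3 with the former and 272 and 35 with the latter. The ribosomal RNA share did not overlap between the groups, so that fit can hardly part it from the group. The Y-linked sum was 80.4, 0.026 and 122 CPM in control replicates 1, 2 and 3 and 102, 208 and 209 CPM in CKO replicates 1, 2 and 3. Control replicate 2 thus held almost no Y-linked RNA, and the main fit had no term for sex. Of Zfp992, 43% of the 50-base stretches were shared, most often with Zfp991.

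The other tested members of the chromosome 4 run did not pass the test but had the same sign. All 7 tested members of this run had a positive log2 fold change, with a median of 0.36, beside 0.03 over the 65 tested members elsewhere. Of all tested genes, 50.8% had a positive one. The run was singled out after its values were seen, so no test is given for it. Zfp984 (chromosome 4, 147753974 to 147809788, minus strand), whose upstream sequence is shown above, had 11.7, 13.5 and 11.9 CPM in the controls and 16.6, 15.2 and 15.9 in CKO. The groups did not overlap, at 12.4 ± 0.952 and 15.9 ± 0.666 CPM (SD, n = 3), a difference of 0.36 ± 0.11 log2 units (adjusted p = 0.0659), and DESeq2 called it (adjusted p = 0.0404). Of the 50-base stretches of Zfp984, 54.5% are shared. Its exons overlap those of Gm20707, which was not called (0.57 ± 0.25 log2 units, adjusted p = 0.235) but also had each CKO library above each control. Zfp991 had 6.88, 6.26 and 8.07 CPM in the controls and 8.25, 9.18 and 9.93 in CKO (0.37 ± 0.15 log2 units, adjusted p = 0.176). Again no CKO library was below a control, though the nearest values, 8.07 and 8.25 CPM, lay close together. Zfp991 shares 82.2% of its 50-base stretches. Zfp933, at 12.2 ± 0.425 and 13.8 ± 0.841 CPM (SD, n = 3), differed by 0.18 ± 0.11 log2 units (adjusted p = 0.423), also without overlap. It shares 1.05% of its 50-base stretches, the lowest share in the run. Zfp982, which has been linked to the stem cell state of embryonic stem cells, was at 2.18, 1.32 and 2.14 CPM in control libraries and 2.4, 1.86 and 2.27 CPM in CKO libraries, and the groups overlapped (0.21 ± 0.28 log2 units). Zfp993 (0.45 ± 0.30) and Zfp979 (0.13 ± 0.19) overlapped as well. The shared part was 11.9% in Zfp982, 86.8% in Zfp993 and 26.7% in Zfp979.

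**Figure D2:**
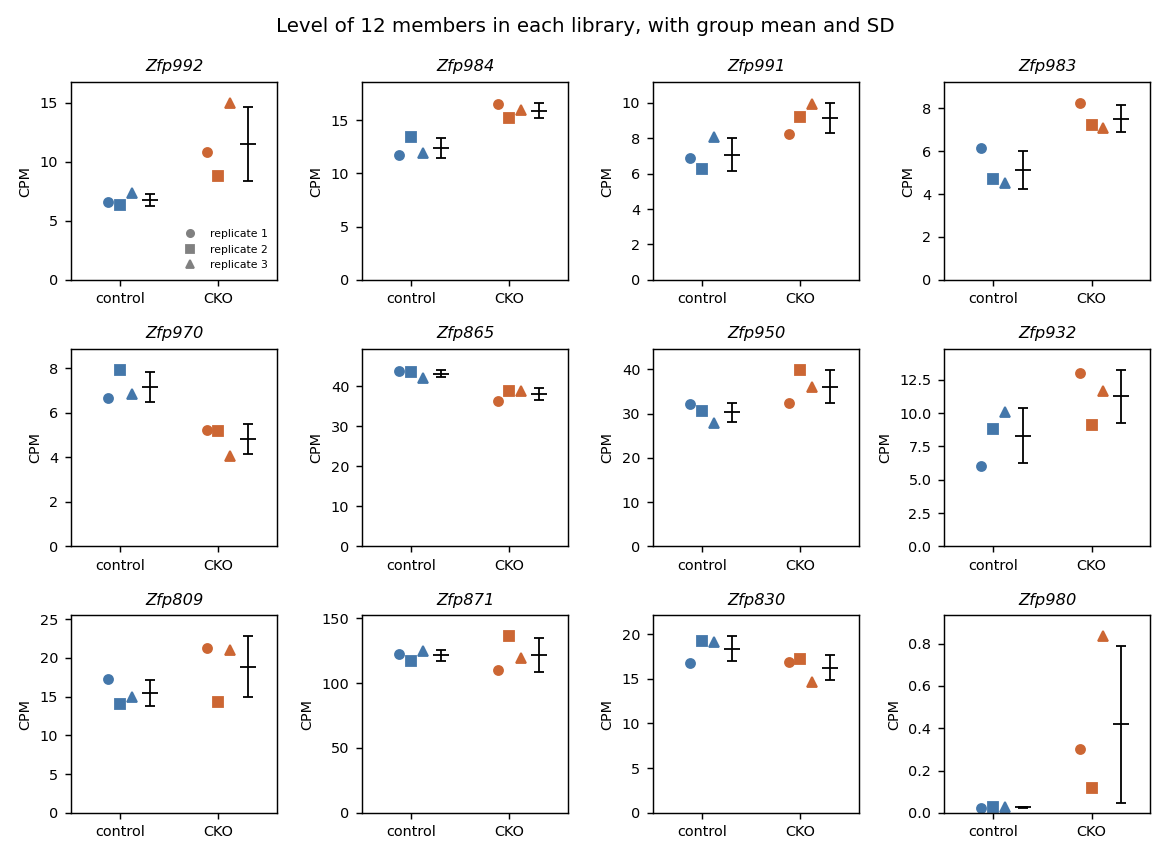
Level (CPM, axis from 0) of 12 members in each library, with the symbol shape giving the replicate number, and the group mean with its SD (n = 3) as a bar at the right. In Zfp992, Zfp984, Zfp991, Zfp983, Zfp950 and Zfp980 each CKO library lies above each control, in Zfp970 and Zfp865 each lies below, and in Zfp932, Zfp809, Zfp871 and Zfp830 the groups overlap.

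The other 9 members of the run were too low to be tested. Zfp980 was counted 1 time in each control and 11, 4 and 33 times in CKO replicates 1, 2 and 3. With no filter on counts its adjusted p was 0.016, which rests on 1 count in each control. For Zfp981 control libraries gave 1, 1 and 5 counts and CKO libraries 6, 2 and 16, and for Zfp987 they gave 1, 0 and 1 against 9, 2 and 2. Zfp985 reached 11 counts and Zfp989 reached 7, both in CKO replicate 3, and the highest control counts were 4 and 2. Zfp986 was at 0 in the controls and at 4, 0 and 0 counts in CKO, and Zfp988 had 0, 0 and 1 and 4, 1 and 3. Zfp978 had 6, 4 and 0 and 1, 7 and 9 counts, and Zfp990 had 1 count in all. The 9 genes summed to 13, 9 and 10 counts in control libraries and 36, 16 and 81 counts in CKO libraries, or 12, 8 and 9 and 25, 12 and 48 without Zfp980. CKO replicate 3 held most of the excess. These are few counts, and 8 of the 9 genes share at least 20% of their 50-base stretches with another gene, so no direction is given for any one of them.

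Reads that copies share can move between members, so the sum over the run was also taken. This sum does not cover reads shared with genes that are not members, such as Zfp600, with which Zfp980 shares the most 50-base stretches. The 16 members summed to 45.9, 47.1 and 47.9 CPM in the controls and to 62.6, 55.2 and 65.8 CPM in CKO replicates 1, 2 and 3. The means were 47 ± 1.04 and 61.2 ± 5.44 CPM (SD, n = 3), a ratio of 1.3, and without Zfp992 they were 40.2 ± 0.843 and 49.7 ± 2.86 CPM. The table also held 51 genes within the span of the run that are not members. Of the 12 tested, 9 had a positive log2 fold change, beside 50.8% of all tested genes, and the median of the 12 was 0.21. Of the same 12, 2 were called, both higher, beside 3.03% of all tested genes called higher and 1.07% called lower. They were Gm13212 (1.52 ± 0.23 log2 units, adjusted p = 0.00257), the gene with which Zfp984 shares the most 50-base stretches, and Znf41-ps (0.59, SE 0.16, adjusted p = 0.0375), which has this place for Zfp991. The 51 genes summed to 22.8 to 23.6 CPM in the controls and 30.8 to 42.2 CPM in CKO. Without Gm13212 and Znf41-ps the sums were 12.1 to 13.4 and 15 to 15.3 CPM. The 16 members and the 51 genes together summed to 69.3 to 71.5 CPM in the controls and 86.1 to 108 CPM in CKO. All 7 tested members kept a positive sign in the 6 fits that left out 1 library, where their median ranged from 0.14 (without CKO replicate 1) to 0.37. These fits reuse the libraries in which the run was singled out, so the kept sign is no further support. With either covariate 6 of the 7 were positive.

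**Figure D3:**
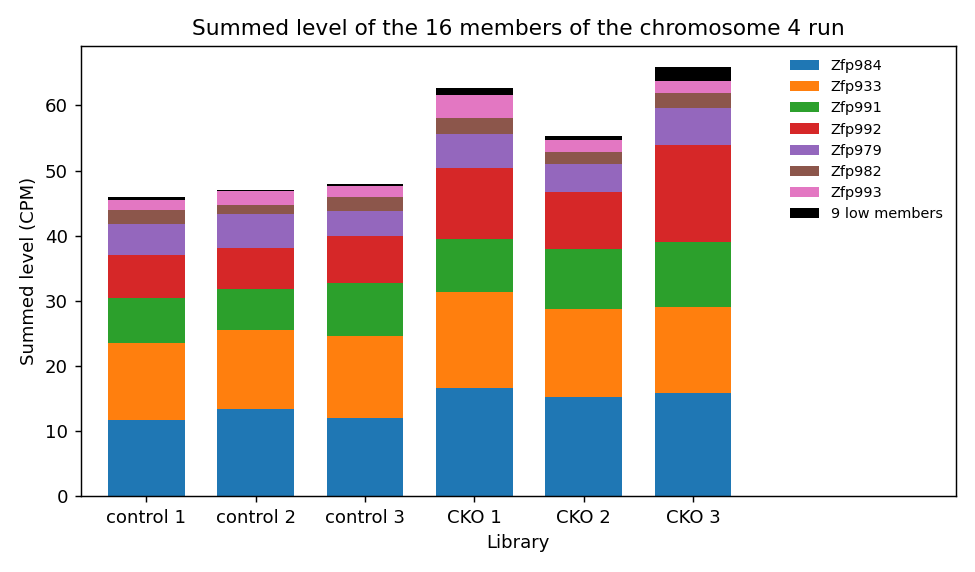
Summed level (CPM) of the 16 members of the chromosome 4 run in each library, stacked by gene, with the 9 members that did not pass the count filter together in black. The controls reach 45.9 to 47.9 CPM and the CKO libraries 55.2 to 65.8 CPM.

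No member of the other runs was called, and whether runs differ was not tested. In the chromosome 17 run of 11 members, all were tested, 8 were positive and the median log2 fold change was 0.14. The groups did not overlap in 4 of the 11 (36.4%), all with CKO higher, against 11.5% of all tested genes. Zfp983 (chromosome 17, 21650624 to 21664966, plus strand) had 6.15, 4.7 and 4.51 CPM in the controls and 8.22, 7.21 and 7.07 in CKO. Each CKO library was above each control, the difference was 0.55 ± 0.17 log2 units (adjusted p = 0.0728), and DESeq2 called it (adjusted p = 0.0419). Zfp947, in the same run, was at 2.52 ± 0.554 and 3.7 ± 0.751 CPM (SD, n = 3), a difference of 0.57 ± 0.24 log2 units (adjusted p = 0.209). The other 2 were Zfp944 (0.28) and Zfp943 (0.14). The run summed to 114 to 122 CPM in the controls and 124 to 137 CPM in CKO.

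In the chromosome 8 run all 6 members were tested, and all 6 had a negative log2 fold change, from -0.07 in Zfp869 to -0.30 in Zfp964, with a median of -0.13. The groups overlapped in each member. The sum of the 6 was 98.1 to 102 CPM in the controls and 90 to 94.7 CPM in CKO. Each member kept its sign in every fit that left out 1 library, though these fits reuse the same libraries. In the chromosome 7 run the 3 tested members were positive (0.03 to 0.14), and the smaller chromosome 17 run of 4, with Zfp871, had a median of 0.00.

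Members of the chromosome 2 run differed among themselves. Zfp970 (chromosome 2, 177464733 to 177478129, plus strand), a KRAB gene with 14 fingers, had 6.67, 7.92 and 6.84 CPM in the controls and 5.24, 5.17 and 4.04 in CKO. Each CKO library was below each control, at 7.14 ± 0.677 and 4.82 ± 0.673 CPM (SD, n = 3), a difference of -0.57 ± 0.17 log2 units (adjusted p = 0.06). DESeq2 called it (adjusted p = 0.0321). It shares 49.5% of its 50-base stretches with other transcripts. Zfp971 of the same run, with an upstream sequence 90.7% identical to that of Zfp970, differed by 0.00 ± 0.14 log2 units, and Zfp931 by 0.06 ± 0.15. For Zfp965 control libraries gave 7, 17 and 10 counts and CKO libraries 4, 4 and 62, and for Zfp968 they gave 4, 2 and 3 against 1, 3 and 25, so that in both genes CKO replicate 3 alone stood above the controls. Zfp972 gave 15, 15 and 16 counts in control libraries and 4, 3 and 14 in CKO libraries, without overlap in CPM and with a difference of -1.05 ± 0.68 log2 units (adjusted p = 0.464). Zfp966 gave 11, 8 and 6 against 14, 17 and 11 counts, a difference of 0.81 ± 0.64 log2 units (adjusted p = 0.574). Zfp967 had 1 count in all, Zfp969 had 1 to 2 counts in the controls and 4 to 9 in CKO, Zfp973 had 2 to 15 and 4 to 11, and Zfp831 had 0 to 4 and 1 to 5. Summed over its 11 members, the run had 22.8 to 25.7 CPM in the controls and 21.2 to 23.3 CPM in CKO.

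**Figure D4:**
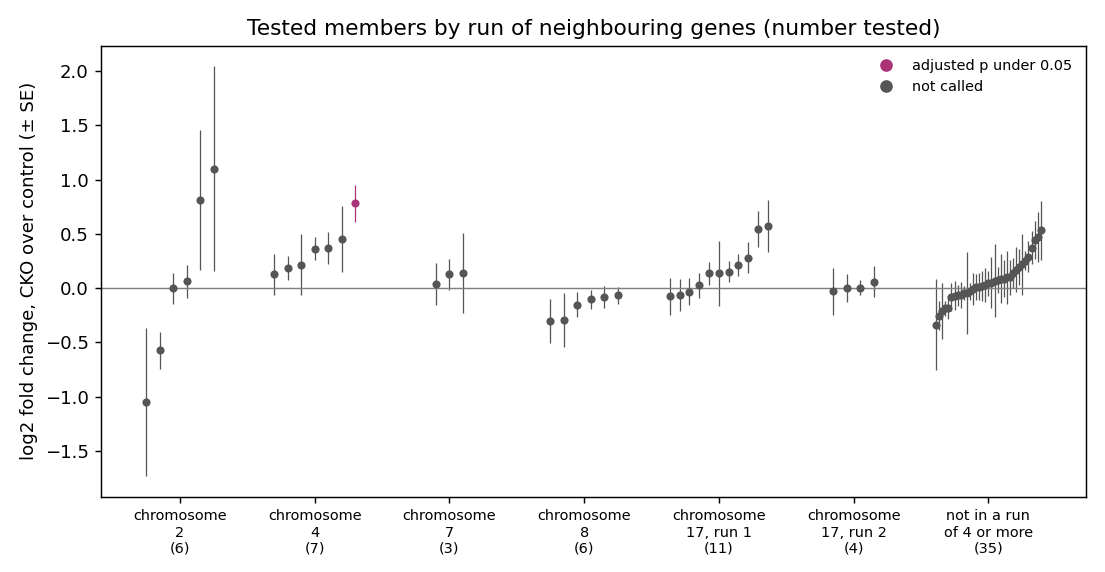
Log2 fold change (CKO over control) with its SE for each tested member, by run of neighbouring genes and ordered by value within a run. The 7 tested members of chromosome 4 lie above 0 and the 6 of chromosome 8 below it, and Zfp992 is the called member.

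Of the 35 tested members outside these runs none was called, 22 were positive, and the median log2 fold change was 0.04. Zfp865 (chromosome 7, 5020376 to 5036768, plus strand), which has fingers but no KRAB-like stretch, had 43.8, 43.4 and 42.2 CPM in the controls and 36.3, 38.9 and 38.8 in CKO. The groups did not overlap, the difference was -0.18 ± 0.07 log2 units (adjusted p = 0.155), and its exons overlap those of 4 other genes. Zfp950 on chromosome 19 had 32.3, 30.6 and 27.9 CPM in the controls and 32.5, 39.9 and 36 in CKO (0.25 ± 0.09 log2 units, adjusted p = 0.114). Its groups were parted by the small step from 32.3 to 32.5 CPM. Zfp825 on chromosome 13 was at 6.24 ± 0.924 and 8.06 ± 0.283 CPM (SD, n = 3), a difference of 0.37 ± 0.15 log2 units (adjusted p = 0.195), without overlap.

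Members with a known part in silencing retroelements were not called. Zfp809 (chromosome 9, 22225714 to 22243354, plus strand) had 17.3, 14 and 15 CPM in the controls and 21.2, 14.3 and 21 in CKO. CKO replicate 2 lay among the controls, the difference was 0.29 ± 0.14 log2 units (adjusted p = 0.29), and without that library it was called (log2 fold change 0.45, adjusted p = 0.0096). Zfp932 (chromosome 5, 109996521 to 110010411, plus strand), which represses endogenous retroviruses of the ERVK class, had 6.05, 8.78 and 10.1 CPM in the controls and 13, 9.09 and 11.6 in CKO. Only CKO replicate 2 lay inside the control range (0.44 ± 0.18 log2 units, adjusted p = 0.188), and it was called without that library (adjusted p = 0.0328). The gene shares 37% of its 50-base stretches, most often with Gm15446. Zfp819, which is known from pluripotent and germ cells, had 0 counts in each control, which allows up to 0.0753 to 0.0801 CPM by the floor of 3 counts in a library, and 1, 4 and 0 counts in CKO.

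The members named above for roles outside retroelement silencing overlapped between the groups. Zfp827 was at 76.3, 69.9 and 77.1 CPM in control libraries and 66.5, 75 and 74.4 CPM in CKO libraries (-0.05 ± 0.07 log2 units). Zfp830 was at 16.8, 19.2 and 19.1 against 16.9, 17.2 and 14.6 CPM (-0.18 ± 0.10), and Zfp800 at 13.2, 11.6 and 12.7 against 11.7, 13.3 and 11 CPM (-0.06 ± 0.12). Among abundant KRAB members, Zfp871 was at 122, 117 and 125.1 CPM in control libraries and 110, 136 and 119 CPM in CKO libraries, with CKO libraries on both sides of the controls (0.00 ± 0.07). Zfp948 was at 15.3, 16.8 and 17.5 against 20.4, 17.2 and 20 CPM (0.21 ± 0.10, adjusted p = 0.283), with CKO replicate 2 among the controls, and Zfp869 differed by -0.07 ± 0.08. The low members not yet named were Zfp872, counted 6, 0 and 0 times in control libraries and 9, 6 and 9 times in CKO libraries, and Zfp936 and Zfp957, each with counts in control replicate 1 alone.

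Zinc finger genes with numbers outside this range gave a comparison group. Of 263 tested, 5 were higher (Zfp469, Zfp110, Zfp36, Zfp568 and Zfp57) and 2 lower (Zfp423 and Zfp366), or 2.66%, and their median log2 fold change was -0.02. These symbols also cover zinc finger proteins of other kinds, such as the mRNA-binding protein of Zfp36.

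The machinery that KRAB proteins work through was followed in a list of 36 tested genes for TRIM28, SETDB1, heterochromatin protein 1, DNA methylation and linked factors. In this list 2 genes were higher and 2 lower (11.1% called, against 4.1% of all tested genes), 9 had a positive and 27 a negative log2 fold change, and the median was -0.08. Uhrf1, which brings the maintenance DNA methyltransferase to replicated DNA, had 180, 190 and 184 CPM in the controls and 156, 154 and 145 in CKO. It fell by 0.28 on the log2 scale (SE 0.05, adjusted p = 0.0038), and every one of the 6 fits without a library called it. With the ribosomal RNA share (adjusted p = 0.301) or the Y-linked level (adjusted p = 0.0626) as covariate it was not called, nor was any other gene of this list. Calls over all tested genes also fell with either covariate, as given for Zfp992. Atf7ip, the partner that stabilises SETDB1, was at 163 ± 6.47 and 136 ± 14.6 CPM (SD, n = 3) and fell by 0.26 on the log2 scale (SE 0.07, adjusted p = 0.0336), with 1 of the fits without a library calling it. Trim24, a relative of Trim28, rose from 69.8 ± 4.48 to 86.5 ± 8.86 CPM (0.31 ± 0.07 log2 units, adjusted p = 0.0216) and Zfp57, a KRAB protein of imprinted loci, from 43.4 ± 3.42 to 52.8 ± 3.91 CPM (0.28, SE 0.08, adjusted p = 0.039, SD, n = 3), each called by 2 of those fits. Setdb1 itself was at 82.6 ± 2.46 and 75.5 ± 3.74 CPM (SD, n = 3), a difference of -0.13 ± 0.06 log2 units (adjusted p = 0.266).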

How the data were processed

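The authors deposited raw read counts per gene symbol for 6 libraries, named as raw counts per the labels, on the mm10 build per the submitters' processing notes. The aligner, counter, annotation and strand setting were not given in the sources used here. Libraries were grouped by their titles, and no column was left out. Members and lists were chosen with earlier results of these data known.

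Counts were tested with edgeR 4.0.16 (R 4.3.3). The filterByExpr filter (minimum count 10, total 15) left 17557 genes, libraries were scaled with TMM factors, and glmQLFit (robust, legacy set to FALSE) compared the groups with no other term. P-values are two-sided and Benjamini-Hochberg adjusted across the tested genes, and 0.05 was the threshold. The SE was taken from the log2 fold change and its F statistic. The pipeline was tested on simulated data. Alternatives were other scaling factors, DESeq2 1.42.0, limma-voom (limma 3.58.1), other filters, covariates, a stricter threshold and leaving out each library.

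Named were Trim28, called members, the 6 uncalled members with the smallest p, the 6 highest per kb, 7 with known roles, each by library, and any other member by its run. KRAB-like stretches and fingers were found by pattern in GENCODE M21 coding sequences, in place of RefSeq proteins, and shared 50-base stretches stand in place of protein identity. Upstream windows of 250 bases were also searched on both strands for CCGGAAG, TGACGTCA, the NRF1 motif and AAGATGGC, found in 11, 1, 0 and 2 of the 72 windows and in 6.91%, 1.55%, 0.782% and 1.56% of all windows. Floors and counts cover counting error only.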

Additional observations from a re-analysis of the deposited data

How the results depend on the processing

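The number of members called was small and moved with the settings. Against 1 higher and 0 lower member, DESeq2 gave 3 higher and 1 lower, no filter 4 higher and 1 lower, and no scaling factors 1 lower. No member was higher at an adjusted p under 0.01 or with the ribosomal RNA share or the Y-linked level as covariate. Fits that left out 1 library gave 0 to 5 higher and 0 to 1 lower members, with 5 higher and 1 lower without CKO replicate 2 (1 of the 5, Zfp980, passed the filter there through its CKO counts alone), and 0 higher without control replicate 1, 2 or 3 or CKO replicate 3. Calls over all tested genes moved with the settings as well. The main fit called 532 higher and 188 lower, DESeq2 747 and 321, and no filter 863 and 388. Without CKO replicate 2 there were 1012 and 540, and without control replicate 1 there were 255 and 67. The shifts are thus not particular to the members. The member median was 0.12 with the ribosomal RNA share as covariate. Trim28 was called by limma-voom (log2 fold change -0.86, adjusted p = 0.0165) and in edgeR without robust estimation (-0.81, adjusted p = 0.0194).

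Against 2 higher and 2 lower co-repressor genes, there were 1 higher without scaling factors, 4 higher with no filter, 0 higher and 1 lower at an adjusted p under 0.01, 0 and 0 with either covariate, and 0 to 4 higher and 1 to 3 lower in fits that left out 1 library. Against 5 higher and 2 lower other numbered Zfp genes, there were 8 and 4 with no filter, 0 and 0 with the ribosomal RNA share, 3 and 1 with the Y-linked level, 1 lower at an adjusted p under 0.01, and 4 to 7 higher and 0 to 8 lower in fits that left out 1 library. The log2 fold change of Zfp871, which lies at 0, turned negative without scaling factors (-0.017), with limma-voom (-0.0012), with no filter (-0.0014), with the replicate block (-7.9e-05) and with the Y-linked level (-0.044), and ranged from -0.082 to 0.064 in fits that left out 1 library. That of Zfp982 was -0.037 with the Y-linked level. The cause was not tested in any of these. An edgeR legacy fit, added after the data were seen, called the same number of members. Controls and CKO libraries of the same number did not deviate together (correlations from -0.00223 to 0.0167), and with the replicate number as a block 1 member was higher and 0 were lower. Low counts limit the 18 untested members, and shared sequence limits the runs on chromosomes 2 and 4.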
